A study of Mus musculus with 4 samples.

Results

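Genes that p53 switches on, together with p53 itself, its regulators, its relatives and the INK4A locus, were examined in cancer cell lines that came from tumors deleted for p53. The set holds 36 genes, matched to the array by symbol. Of these, 33 were measured here, among 19938 genes on the array, while Trp53, Bax and Cdkn1a were not analysed here. No cluster of probes carried Trp53 or Bax as its symbol, and the cluster of Cdkn1a, which encodes p21, also carried other symbols. The Trp53 deletion was therefore taken from the labels and not checked, and Cdkn1a, the best known p53 target, is missing from everything that follows.

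Each of 4 lines of cultured pancreatic cancer cells, 2 of each genotype, was hybridized once to the Affymetrix Mouse Gene 1.0 ST array. TPC18645 and TPC20223 came from TPC mice, labelled Ela-TGFa, Ptg1a+/CRE and Trp53fl/fl (the study writes the Cre driver as p48-Cre). K459 and TCPA18654 came from TPAC mice, which carry the same alleles plus p65fl/fl. This allele is meant to remove RelA, the p65 subunit of NF-κB, as well, and that loss was not checked here either. In these models the elastase promoter places the TGF-α transgene in acinar cells, and p48-Cre deletes floxed genes in the pancreas. By the labels p53 loss is thus common to all 4 lines, though the deletion was not checked in any of them. No line labelled as p53-proficient was available for comparison. The tumors were digested and their cells grown in culture with no treatment. The labels give neither the ages of the donor mice nor whether each line had its own, so any test here measures only the spread between these arrays. The array comparison was made to find pathways that differ between TPAC and TPC cancer cells.

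The protein p53 is a transcription factor that is kept low by Mdm2 and Mdm4 and accumulates after DNA damage or oncogene stress. It then binds pairs of short decamer sequences near its targets and turns on genes that halt the cell cycle, promote cell death, repair DNA or adjust metabolism. The INK4A locus supplies the alarm for oncogenes: p19Arf, made from Cdkn2a, frees p53 by holding Mdm2, whereas p16Ink4a from the same gene and p15Ink4b from Cdkn2b restrain Cdk4 and Cdk6 and so keep RB active. In tumors p53 and this locus are often lost as alternatives to each other. Most p53 targets have further activators, among them NF-κB, ATF4, FOXO and growth factor signals, so a target can be transcribed without p53.

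In these lines, labelled as p53-deleted, most genes of the set gave signals above those of smell and pheromone receptor genes. This held in all 4 lines for 32 of the 33 measured genes (65.8% of all genes), and Eda2r was the exception. A group of 9 genes, including Ccng1, Sesn1, Ei24 and Aen, had a range under 0.3 on the log2 scale, a share no larger than that of all genes (34.1%). Another 11, among them Fas, Plk2, Gadd45g and Sesn2, differed by a log2 signal of 1 or more (15.9% of all genes), and most of this variation followed TPC20223 or K459. No gene of the set differed between TPAC and TPC lines at the adjusted threshold of limma. Cdkn2b, lower in both TPAC lines, had the smallest unadjusted p (limma, 0.0265), but its adjusted p of 0.989 was shared by most of the set.

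Before these results, the lines themselves need to be described. The labels give pancreatic tumor cells. Ductal epithelial markers (8 of 8 measured) had a median log2 signal of 10.88 in TPC18645, 12.38 in K459 and 11.07 in TCPA18654, but only 6.78 in TPC20223, where the keratin gene Krt19 read 6.08 against 11.74, 12.65 and 11.79. Their summed signals came to 9.89 on the log2 scale in TPC20223 and 14.85 to 15.47 in the others, with 7 of 8 markers above the chemoreceptor level (defined in the next paragraph) in TPC20223 and 8 of 8 elsewhere. Not every ductal marker followed Krt19. Epcam read 6.82, 6.43, 9.77 and 7.37 in TPC18645, TPC20223, K459 and TCPA18654, and Cldn4 read 7.12, 6.93, 9.19 and 7.25. For both, K459 alone was high. Mesenchymal markers had a median of 10.82 in TPC20223 and 9.84 to 10.24 in the other lines. Of these, 7 of 8 had lower means in TPAC (9422 of 19938 over all genes). Snai2 read 11.52 in TPC20223 against 9.59 to 9.72, and Vim was even, at 13.79 to 13.91. Twist1 read 7.01, 9.11, 8.32 and 6.67 in TPC18645, TPC20223, K459 and TCPA18654. Cdh2 went the other way, with 11.97, 10.95, 11.41 and 11.80, lowest in TPC20223. The logarithm of summed fibroblast marker signals was 14.58 in TPC20223 and 12.88 to 13.38 in the others. In every line 6 of 8 fibroblast markers were above the chemoreceptor level, and Lum and Fap were below it. Of wide range were Col1a1 (13.02 in TPC20223, 8.53 to 10.36 in the others), Col1a2 (10.95 against 7.64 to 9.76) and Pdgfra (10.32 against 7.72 to 8.32). Dcn was not highest in TPC20223, with 9.35 there, 8.57 in K459, 11.03 in TPC18645 and 10.99 in TCPA18654. The leukocyte genes Ptprc, Adgre1 and Itgam lay below this level everywhere, whereas Cd68, Cd3e and Csf1r lay above it in all 4 lines. Cd68 read 8.60, 6.66, 7.66 and 8.60 in TPC18645, TPC20223, K459 and TCPA18654. Lyz2 was above the level only in TPC20223 (6.48) and K459 (6.91). In the same order of lines, 3, 4, 4 and 3 of 7 leukocyte markers were above it, with summed signals of 9.05 to 9.68. For endothelial markers these counts were 2, 3, 2 and 2 of 5, for acinar markers 4, 3, 2 and 3 of 6, and for Schwann cell markers 2, 3, 2 and 2 of 3. The part of these markers in the results was not tested, and in a bulk array fewer cells of a type and less RNA per cell cannot be told apart. TPC18645 and TCPA18654 resembled each other closely despite their different genotypes. Only 0.271% of all genes, and 0 of the 33 genes of the set, differed by 1 or more between them. For TPC20223 and TPC18645, of 1 genotype, this share was 11.2%, with 6 genes of the set (Btg2, Ephx1, Fas, Perp, Plk2 and Sesn2), and for K459 and TCPA18654 it was 3.87%, with Fas and Trp53inp1. Whether lines were exchanged or came from related animals was not tested, and every TPAC minus TPC value below rests on the labels as given.

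The values carry no detection call. Receptors for odors and pheromones are hardly used outside the nose, so the 95th percentile of 1190 such genes served as a rough stand-in for background, at 6.34, 6.26, 6.30 and 6.46 in TPC18645, TPC20223, K459 and TCPA18654. Of all genes, 65.8% exceeded it in every line, as did 97.0% of the measured set. Probes differ in brightness between genes, so beyond such marks and the summed markers, levels were compared only between lines for 1 gene at a time. Eda2r, a death receptor of the TNF receptor family, read 5.29, 5.79, 5.17 and 5.44, below the stand-in in each line. With the 99th percentile as a stricter mark, 27 genes remained above it in every line (49.8% of all genes), and Bbc3, Fas, Ddb2, Trp63 and Trp73 joined Eda2r among those below in at least 1 line.

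**Figure D1:**
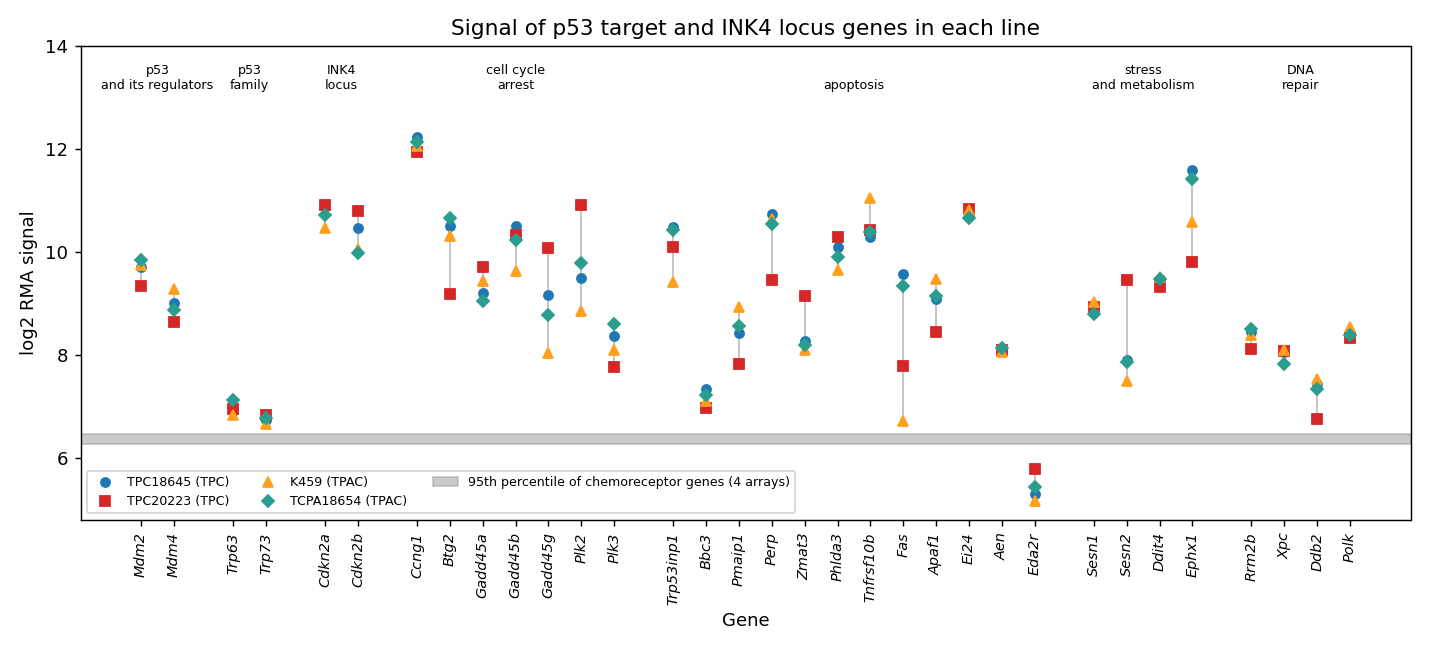
The vertical axis gives the log2 RMA signal of each measured gene of the set, grouped by role along the horizontal axis, with 1 point per line and a gray bar from the lowest to the highest line; the gray band spans the 95th percentile of chemoreceptor genes over the 4 arrays, 6.26 to 6.46. Eda2r lies below the band in all 4 lines, and Fas shows the longest bar.

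Both genes of the INK4A locus were transcribed in all lines, and the TPC lines read higher than the TPAC lines for each. Cdkn2a had log2 signals of 10.90 (TPC18645), 10.91 (TPC20223), 10.46 (K459) and 10.71 (TCPA18654). Its probe cluster lists the transcripts of p16Ink4a and of p19Arf, so these products cannot be told apart. The groups did not overlap, with means of 10.90 ± 0.01 (SD, n = 2) in TPC and 10.58 ± 0.18 (SD, n = 2) in TPAC, but the difference of -0.32 (SE 0.15; -0.20 without K459) did not pass (limma, adjusted p = 0.989). Cdkn2b, which encodes p15Ink4b, read 10.46, 10.79, 10.05 and 9.97 in the same order. Again both TPC lines exceeded both TPAC lines, with means of 10.62 ± 0.23 and 10.01 ± 0.06 (SD, n = 2 each). The difference was -0.61 (SE 0.17; limma, unadjusted p = 0.0265, adjusted p = 0.989), and it ranged from -0.78 without TPC18645 to -0.45 without TPC20223. From TPC18645 to TCPA18654, lines otherwise so alike, it changed by -0.49.

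Around the locus on chromosome 4 the annotation places Mtap on one side and Dmrta1 on the other. Mtap, an enzyme gene of methionine salvage that is often deleted together with the locus in tumors, read 10.74, 10.49, 10.27 and 10.68 in TPC18645, TPC20223, K459 and TCPA18654 (it is named for its place, after its values were seen). Dmrta1 had signals of 5.68, 7.59, 6.89 and 5.65, under the chemoreceptor level in TPC18645 and TCPA18654. A list of 6 genes of this region also held Klhl9, Mllt3 and Focad, which are not among the nearest genes. Of the 6, all measured, 6 had lower means in TPAC, with a median difference of -0.38. Of these, 3 did so without overlap, and 0 were called by limma. For Mtap (-0.14, SE 0.21), Dmrta1 (-0.36, SE 0.84) and Klhl9 (-0.06, SE 0.13) the difference was smaller than its SE (Klhl9 is named after its values were seen). By comparison, 9422 of all 19938 genes had lower means in TPAC, and 13.3% of all genes did so without overlap. The median difference over all genes was 0.01. TPC20223 stood above every other line for Dmrta1, for Elavl2 (7.36 against 5.60 to 6.0), for Mllt3 (9.99 against 9.22 to 9.29) and for Focad (8.86 against 7.59 to 8.27). Elavl2, 1 of the 3 genes without overlap, was above the chemoreceptor level in TPC20223 only. Without TPC20223 the median difference of the neighbors was -0.14, with 5 of 6 lower.

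Downstream of the locus lies the cyclin D and RB axis, which p15Ink4b and p16Ink4a restrain. All 20 genes of this list were above the chemoreceptor level in every line, and none varied by 1 or more. The widest ranges were those of E2f6 (8.79 to 9.77), E2f7 (9.41 to 10.39), Cdkn2c (8.95 to 9.90) and Ccnd2 (12.34 to 13.25). Cdkn2c, a further INK4 inhibitor, was lowest in K459, whereas E2f7 and Ccnd2, which encodes cyclin D2, were highest in TPC20223. Genes known to repress the INK4A locus, mainly Polycomb factors, were higher in TPAC in 4 and lower in 6 of 10, and 0 were called. Only 2 of them varied by 1 or more, and both set TPC20223 apart. Tbx3, a T-box repressor, read 6.70, 9.16, 7.51 and 6.84, and Suz12, a Polycomb subunit, read 10.55, 8.79, 10.68 and 10.72.

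Of the inhibitors that hold p53 down in normal cells, Mdm2 read 9.70, 9.33, 9.75 and 9.85 in TPC18645, TPC20223, K459 and TCPA18654. Mdm2 is both the ubiquitin ligase for p53 and a p53 target, and it was lowest in TPC20223. The TPAC lines lay above the TPC lines by 0.28 on average (SE 0.18), which limma did not call (adjusted p = 0.989), and by 0.10 without TPC20223 or 0.47 without TPC18645. Mdm4, its partner that masks the activation domain of p53, ranged from 8.63 in TPC20223 to 9.27 in K459. The relatives of p53, which bind the same sites, read 6.83 to 7.12 for Trp63 and 6.65 to 6.84 for Trp73. Both counted as dim, being in the lowest 40% of genes by mean signal, and neither exceeded the 99th percentile of chemoreceptor genes in all lines.

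Among the genes of cell cycle arrest, Ccng1 (cyclin G1) was even, at 11.94 to 12.23. The Gadd45 genes, whose products restrain growth and act in stress kinase signaling, were not. Gadd45g had log2 signals of 9.17, 10.07, 8.03 and 8.77 in TPC18645, TPC20223, K459 and TCPA18654. TPC20223 stood above and K459 below every other line, each by at least 0.58, and both TPC lines lay above both TPAC lines. The difference of -1.22 (SE 0.44) was the largest of the set but was not called by limma (unadjusted p = 0.055, adjusted p = 0.989), and it was -0.77 without TPC20223 and -0.85 without K459. Gadd45b read 10.51, 10.32, 9.63 and 10.24, lowest in K459 by more than 0.58. Its mean was lower in the TPAC lines by 0.48 (SE 0.26; limma, adjusted p = 0.989) without overlap, and the difference was -0.18 without K459 and -0.79 without TCPA18654. Gadd45a stayed within 9.05 to 9.71.

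Plk2 and Btg2 differed more widely. Plk2, a polo-like kinase induced by p53 and by growth factors, read 9.49, 10.92, 8.85 and 9.79 in the same order of lines. It was highest in TPC20223 and lowest in K459, like Gadd45g, and the groups overlapped. Btg2, an antiproliferative gene that is also an immediate early gene, had signals of 10.51, 9.18, 10.31 and 10.66. Only TPC20223 was low, by 1.31 against the mean of the others, and the TPAC minus TPC difference of 0.64 became -0.03 without that line. Plk3 ranged from 7.76 in TPC20223 to 8.59 in TCPA18654.

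Fas, the death receptor gene, varied most of the whole set. It read 9.58 in TPC18645 and 7.78 in TPC20223, and 6.71 in K459 and 9.34 in TCPA18654, a range of 2.87. The lines thus fell into TPC18645 and TCPA18654 with high signal, TPC20223 in between and K459 near the chemoreceptor level, and each genotype held a high and a low line. The TPAC minus TPC difference was -0.66 (SE 1.17; limma, adjusted p = 0.989) and turned to 0.24 without TPC18645 and 0.66 without K459. The other death receptor above the chemoreceptor level, Tnfrsf10b, which binds TRAIL, went the other way in K459, with 11.04 there and 10.29 to 10.43 in the rest.

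Inside the apoptotic pathway, Trp53inp1, a p53-induced nuclear protein gene, read 10.48, 10.10, 9.41 and 10.42 in TPC18645, TPC20223, K459 and TCPA18654. K459 was low, by 0.92 against the mean of the other lines. Pmaip1, which encodes the BH3-only protein Noxa, had 8.42, 7.83, 8.93 and 8.57, and Apaf1, the scaffold of the apoptosome, had 9.09, 8.44, 9.48 and 9.15. For these 2 genes TPC20223 was lowest and K459 highest, and both TPAC lines lay above both TPC lines. The differences were 0.62 (SE 0.28) for Pmaip1 and 0.55 (SE 0.29) for Apaf1, neither called by limma (adjusted p = 0.989), and they fell to 0.33 and 0.22 without TPC20223. Bbc3, which encodes Puma, another BH3-only protein, ranged only from 6.96 to 7.33.

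Perp, a p53 effector that is also a component of epithelial junctions, read 10.73, 9.45, 10.63 and 10.55 in the same order. The low value belonged to TPC20223, the line with low keratin signal, and lay below the mean of the other 3 lines by 1.19. The TPAC minus TPC difference of 0.50 (SE 0.48) turned to -0.14 without this line. Zmat3, a zinc finger gene of RNA regulation, had 8.26, 9.15, 8.10 and 8.20, high only in TPC20223. Phlda3, an inhibitor of Akt signaling, was lower in both TPAC lines (9.64 and 9.91) than in the TPC lines (10.10 and 10.28), a difference of -0.41 (SE 0.17; limma, unadjusted p = 0.0744, adjusted p = 0.989) that ranged from -0.55 to -0.28 with 1 line left out. Ei24 (10.66 to 10.83) and Aen (8.05 to 8.13) were even across the lines, and the range of Aen, an apoptosis-enhancing nuclease, was 0.08, the narrowest of the set.

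For stress and metabolism the sestrins, which restrain mTORC1, diverged. Sesn1 stayed between 8.80 and 9.03, whereas Sesn2 read 7.91, 9.45, 7.50 and 7.86 in TPC18645, TPC20223, K459 and TCPA18654. TPC20223 alone was high, by 1.69 against the mean of the others, and the TPAC minus TPC difference of -1.0 (SE 0.59) shrank to -0.23 without it. Ddit4, a further mTORC1 inhibitor, ranged only from 9.31 to 9.52. Ephx1, the microsomal epoxide hydrolase, had 11.59, 9.81, 10.59 and 11.42. As for Fas, TPC18645 and TCPA18654 were high, but here TPC20223 was the lowest line. The DNA repair genes Rrm2b (8.12 to 8.51), Xpc (7.82 to 8.09) and Polk (8.33 to 8.54) differed little, and Ddb2, a damage recognition gene, read 6.75 in TPC20223 and 7.33 to 7.53 in the other lines.

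Taken over the set, 11 of 33 genes (33.3%) had a range of 1 or more across the lines, compared with 15.9% of all genes. Among genes above the chemoreceptor level in all lines the share was 34.4% (11 of 32) against a background of 17.7%. A range under 0.3 was found for 9 genes of the set, namely Aen, Ccng1, Ddit4, Ei24, Polk, Sesn1, Trp63, Trp73 and Xpc (27.3%), with 34.1% of all genes and 27.6% of those above the chemoreceptor level. The median range was 0.66 in the set and 0.40 over all genes. With 1 array per line these shares describe the lines and carry no test.

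**Figure D2:**
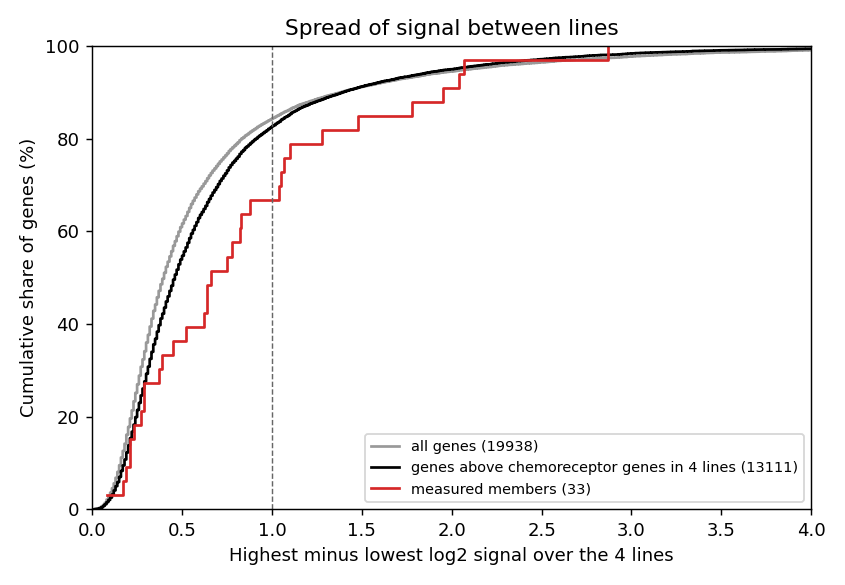
The horizontal axis gives the highest minus the lowest log2 signal over the 4 lines, drawn up to 4, and the vertical axis the cumulative share of genes in percent, for all 19938 genes, the 13111 genes above the chemoreceptor level in every line and the 33 measured genes of the set. At the dashed line, a range of 1, the curve of the set lies below both others because 33.3% of its genes vary by 1 or more.

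For each of the 11 genes with a wide range, TPC20223 or K459 stood apart from the rest. TPC20223 stood above every other line by 0.58 or more for Gadd45g, Plk2, Sesn2 and Zmat3 (7.73% of all genes) and below every other line for Apaf1, Btg2, Ddb2, Ephx1, Perp and Pmaip1 (6.47% of all genes). K459 was lower than every other line for Fas, Gadd45b, Gadd45g, Plk2 and Trp53inp1, which is 15.2% of the set where 1.11% of all genes did so, and higher for Tnfrsf10b alone (2.35% of all genes). None of the set stood apart in TPC18645 or TCPA18654 (0.792% of all genes). Without TPC20223, 4 genes of the set still varied by 1 or more over the other 3 lines, namely Ephx1, Fas, Gadd45g and Trp53inp1, with 4.96% of all genes. Without K459, 7 did (Btg2, Ephx1, Fas, Gadd45g, Perp, Plk2 and Sesn2), with 12.5% of all genes.

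**Figure D3:**
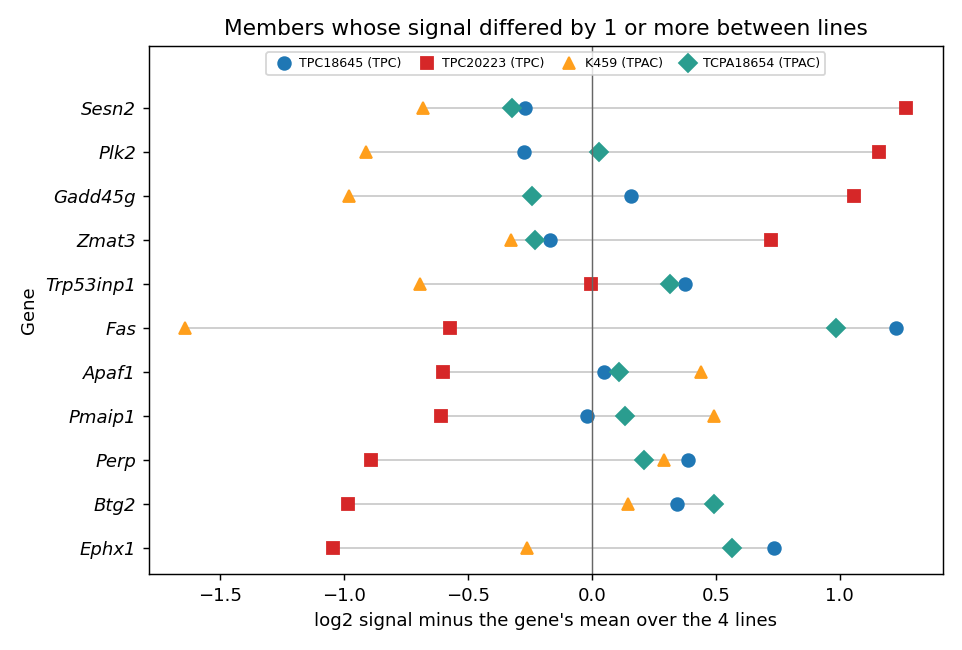
For the 11 genes with a range of 1 or more, the horizontal axis gives the log2 signal of each line minus the mean of that gene over the 4 lines, with 1 point per line and genes ordered by TPC20223. TPC20223 is rightmost for Sesn2, Plk2, Gadd45g and Zmat3 and leftmost for Apaf1, Pmaip1, Perp, Btg2 and Ephx1, whereas K459 is leftmost for the other 6 genes.

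The sequences that p53 would read were taken from RefSeq promoters (GRCm38.p6, 250 bases before to 50 after a start site), which were available for 27 of the 36 genes. The p53 half-site, a palindromic decamer and thus the same on both strands, was found in 10 of these 27 genes (37.0%), with 9.55% of all genes that have such a promoter and 8.36% of the 32851 promoters. A full element, with 2 decamers at most 13 bases apart, was found only for Cdkn1a (0.0731% of promoters), which was not measured. Trp53 and Bax held a decamer as well. The remaining 7, which were measured, are printed here 5′ to 3′ on the strand of the gene, with the decamer in capitals. They show matches to the decamer beside genes with signal above the chemoreceptor level in all 4 lines. Since 32 of the 33 measured genes were above it, this says nothing of a link between decamer and signal. The window of Aen lies past the start site and that of Polk before a downstream start.
Gadd45a (chr6:67037413-67037472, minus strand): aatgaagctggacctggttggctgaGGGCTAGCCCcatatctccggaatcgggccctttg
Aen (chr7:78895927-78895956, plus strand): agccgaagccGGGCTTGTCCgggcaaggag
Ei24 (chr9:36797335-36797369, minus strand): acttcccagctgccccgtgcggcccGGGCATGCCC
Sesn1 (chr10:41887241-41887300, plus strand): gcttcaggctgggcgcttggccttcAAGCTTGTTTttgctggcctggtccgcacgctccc
Mdm2 (chr10:117710910-117710969, minus strand): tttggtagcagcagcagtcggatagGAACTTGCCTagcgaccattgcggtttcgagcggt
Ccng1 (chr11:40755437-40755496, minus strand): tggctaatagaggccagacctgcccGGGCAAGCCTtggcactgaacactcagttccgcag
Polk (chr13:96519384-96519437, minus strand): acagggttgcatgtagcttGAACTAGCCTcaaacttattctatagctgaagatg

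Of the 7 measured genes with a decamer, 0 varied by 1 or more between lines, and Gadd45a (0.66) and Mdm2 (0.52) had the widest ranges. Of the 17 measured genes with a promoter but no decamer, 7 varied, among them Fas with 2.87 and Plk2 with 2.07. These counts are a description. A match to the letters is not a site, many p53 elements lie in introns outside these windows, and no match says nothing of binding elsewhere.

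The genes that were high in TPC20223 were set beside a list of 10 stress genes driven by ATF4, a transcription factor of amino acid and endoplasmic reticulum stress that is known to act on Sesn2. This list had lower means in TPAC in 8 and higher means in 2 of 10, with a median difference of -0.47 (0.01 over all genes), and 0 were called. Chac1, a glutathione-degrading enzyme gene, read 9.51, 11.14, 9.07 and 9.56 in TPC18645, TPC20223, K459 and TCPA18654. Asns, asparagine synthetase, read 11.95, 13.46, 11.83 and 12.16, and Trib3, a pseudokinase gene, read 8.11, 9.44, 8.0 and 8.26. All 3 were highest in TPC20223 and lowest in K459, as were Sesn2, Gadd45g, Plk2 and Zmat3. Of the whole list, 7 of 10 were highest in TPC20223, and 6 of these were lowest in K459. The share of all genes with this order was not computed, so these counts have no background. By the stricter mark of 0.58 or more above every other line, TPC20223 stood apart for 7.73% of all genes. Of this list, only Chac1, Asns, Trib3 and Ddit3 met that mark (Ddit3 is named after its values were seen). The genes of the set shown beside the list were picked for their high signal in TPC20223, and a link to ATF4 was not tested. Atf4 itself was among the 7 but lowest in TPC18645, and Stc2, Atf3 and Nupr1 were not highest in TPC20223: Stc2, a secreted glycoprotein gene, read 9.12 there and 8.16 in K459 against 9.52 and 9.59, and Nupr1 read 10.91 there, its lowest value, and 11.42 in K459 (Atf4, Atf3 and Nupr1 are named after their values were seen).

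**Figure D4:**
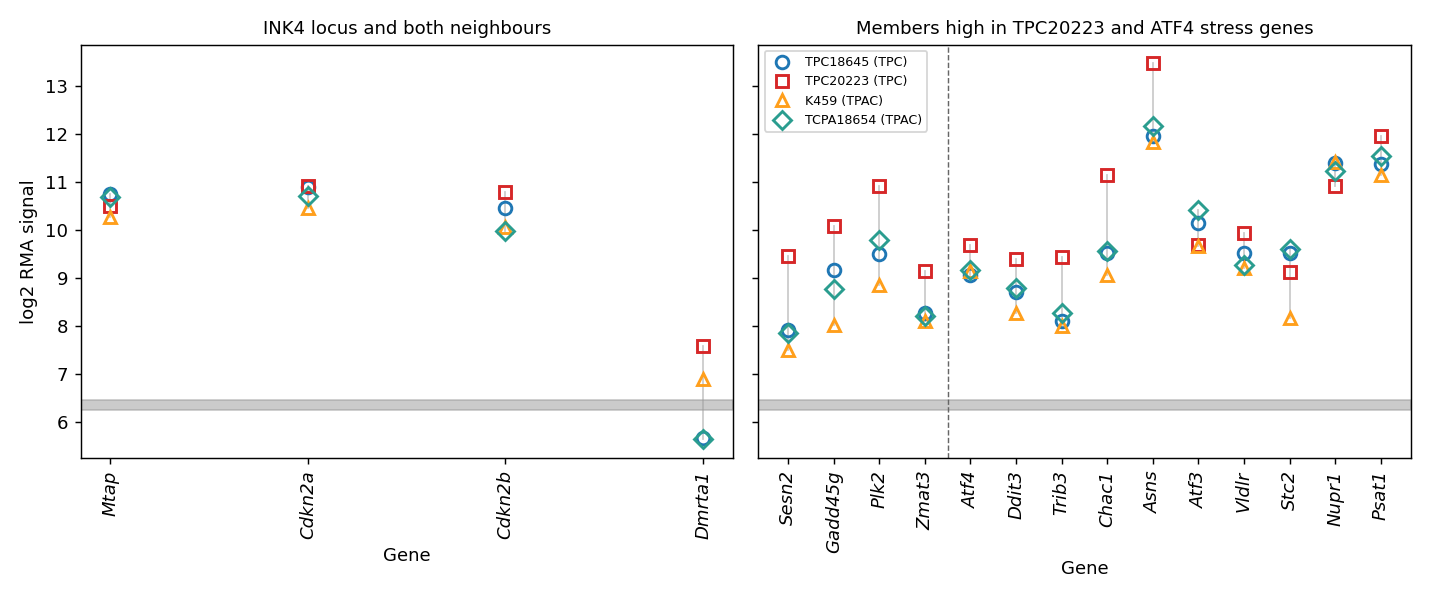
The vertical axes give the log2 RMA signal, with 1 open symbol per line, for the INK4A locus with its neighbors in annotation order (left) and for the 4 genes of the set that were high in TPC20223 beside 10 ATF4 stress genes (right, separated by the dashed line); the gray band is the chemoreceptor level. Cdkn2b is lower in both TPAC lines (9.97 and 10.05), and the red squares of TPC20223 top Sesn2, Gadd45g, Plk2 and Zmat3 as well as Chac1, Asns and Trib3.

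An ATF4 element, TGATGNAA on either strand, was then searched in the same promoters, a motif chosen after the values were seen. It was present in 3.97% of promoters, or 4.51% of genes, in 6 of the 10 ATF4 list genes, and in Gadd45g and Polk of the 27 genes of the set. In no gene of the set did it overlap the p53 decamer, and Sesn2 did not hold these letters in this window. The windows of Gadd45g and of 3 list genes are printed to allow comparison, 5′ to 3′ on the strand of the gene in GRCm38.p6, with the element in capitals, which in Chac1, Trib3 and Gadd45g is on the opposite strand. The element of Trib3 lies past the start site.
Gadd45g (chr13:51846549-51846606, plus strand): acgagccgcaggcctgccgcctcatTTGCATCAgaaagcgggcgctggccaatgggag
Chac1 (chr2:119351024-119351081, plus strand): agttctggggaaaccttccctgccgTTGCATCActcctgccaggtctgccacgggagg
Trib3 (chr2:152344028-152344057, minus strand): ttagctcaggtTTACATCAgccgggcgggg
Asns (chr6:7693210-7693257, minus strand): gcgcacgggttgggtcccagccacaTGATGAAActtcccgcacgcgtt

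When TPAC and TPC lines were compared gene by gene, 17 genes of the set had higher and 16 lower means in TPAC, with a median difference of 0.00 and 0.01 over all genes. Differences ran from -1.22 for Gadd45g to 0.64 for Btg2. With calls set at 0.05 for the adjusted p and at 0.58 for the size of the difference, limma called 0 of 33 genes of the set, as it called 0% of all 19938 genes, and the methods' test per gene also called 0. At an unadjusted p under 0.05 with the same difference, limma named Cdkn2b alone, when 0.421% of all genes (84) did so. Both TPAC lines exceeded both TPC lines for Apaf1, Mdm2 and Pmaip1 (9.09% of the set, 13.7% of all genes). The reverse held for Cdkn2a, Cdkn2b, Gadd45b, Gadd45g, Phlda3, Sesn2 and Zmat3 (21.2% of the set, 13.3% of all genes). With 2 lines per group an exact permutation test of a single gene cannot give a p below 0.333. The low keratin signal of TPC20223 and the likeness of TPC18645 and TCPA18654 enter all these differences, and their part was not tested.

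**Figure D5:**
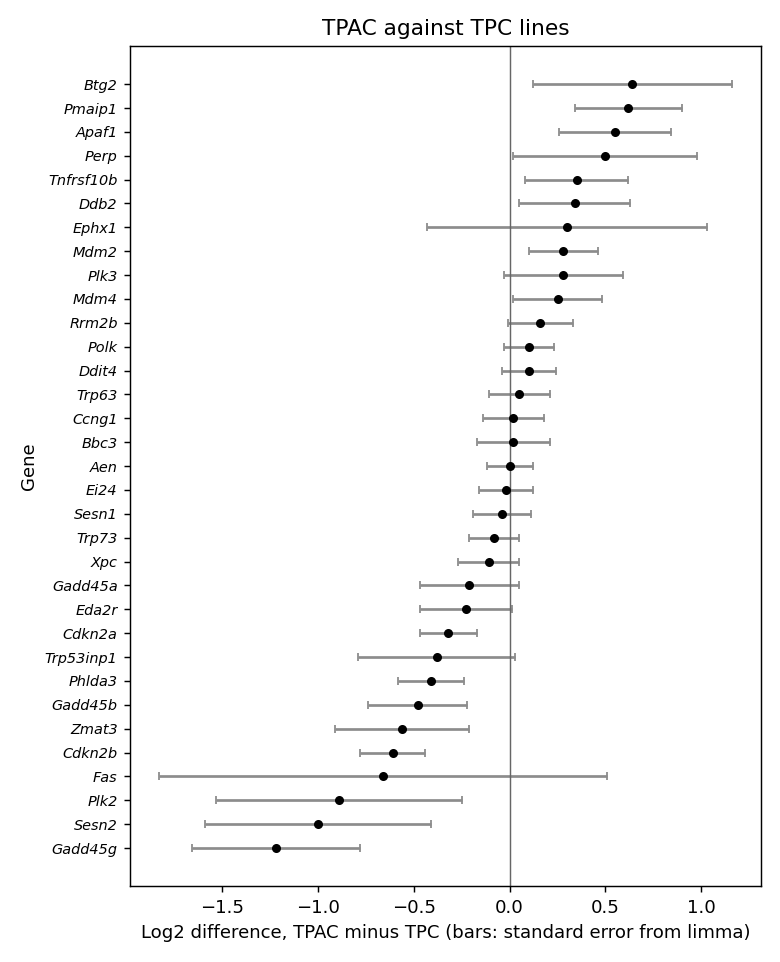
For the 33 measured genes, the horizontal axis gives the difference of log2 signals, mean of both TPAC lines minus mean of both TPC lines, with bars for the standard error from limma, and genes are ordered by it on the vertical axis. The differences run from -1.22 (Gadd45g) to 0.64 (Btg2), with the shortest bar beside a difference over 0.58 in size at Cdkn2b (SE 0.17).

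Other genes of the p53 pathway were read from the same fit. In a list of further p53 targets, 26 of 30 were measured, with 13 higher and 13 lower in TPAC, a median difference of 0.00, 6 with a range of 1 or more, and 0 called. Trp53i11 read 7.36, 10.31, 9.45 and 7.85 in TPC18645, TPC20223, K459 and TCPA18654, and Dram1, an autophagy regulator, read 7.88, 8.85, 9.47 and 7.97. For both genes, TPC18645 and TCPA18654 were low and the other lines high, the opposite of Fas. Lif, a cytokine gene, was low in TPC20223 (7.36 against 8.32 to 8.70), and Dglucy was low there too (6.99) and highest in K459 (8.37). Of 15 kinases and cofactors that activate p53, 8 were higher and 7 lower in TPAC, and 0 were called. Chek2, a checkpoint kinase, read 7.18 in TPC20223 and 8.49 to 8.59 in the others, and Ppp1r13b, an ASPP cofactor of p53, read 9.26 in K459 and 7.89 to 8.71 elsewhere. Mitotic and replication genes that p53 represses through p21 and the DREAM complex showed no range of 1 or more in 14 of 14 measured, with 9 higher and 5 lower in TPAC, a median difference of 0.06 and 0 called.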

How the data were processed

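Total RNA of cultured pancreatic tumor cells was profiled on Affymetrix Mouse Gene 1.0 ST arrays, 1 per line. The values deposited by the authors are log2 signals from RMA. Affymetrix Expression Console 1.4 is named in the submitters' processing notes. Array batches and filters are not given in the sources used here. Since RMA makes the distributions of the arrays almost equal, a difference in total RNA cannot be seen; array medians were 7.19 to 7.26. The number of arrays limits precision.

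Of 28941 transcript clusters, 21789 carry 1 gene symbol, 1621 several and 5531 none here. The brightest cluster with 1 symbol stood for each of 19938 genes. The genotypes were compared with limma 3.58.1 under R 4.3.3 (lmFit, then eBayes, two-sided), and p-values were adjusted by Benjamini and Hochberg's method across all genes. The steps were run on simulated data with 1 noise level for all genes, taken from TPC18645 and TCPA18654, the closest pair. Such a run cannot show how they perform at the wider spread within the genotypes. Calls needed an adjusted p up to 0.05 and a difference of at least 0.58 on the log2 scale. A range of 1 or more over the 4 lines counted as varying, and 0.58 from every other line as standing apart. Named genes were each varying member, the INK4A locus, Mdm2 and at most 4 genes of widest range per other list. Gadd45b, Phlda3, Tnfrsf10b and Ddb2 were given by line after their values were seen. The markers Vim, Lum, Fap, Ptprc, Adgre1, Itgam, Cd3e and Csf1r were named outside this rule, also after their values were seen. Their ranges were at most 0.45. Epcam and Cldn4 were named likewise, with ranges of 3.34 and 2.26. The genes and lists were chosen with earlier results of these data known. Alternatives were a common median, cyclic loess, the mean of clusters, a filter on low signal, an intensity trend, the methods' test, other thresholds and leaving out each line.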

Additional observations from a re-analysis of the deposited data

How the results depend on the processing

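No gene of the set was called in any of the 10 alternatives with an adjusted p; the smallest adjusted p over its 33 genes was 0.144 by limma and 0.973 by the methods' test. With an unadjusted p under 0.05, 84 of all genes and 1 of the set passed. The number of genes of the set with a range of 1 or more was 4 to 11 when 1 line was left out, 4 without TPC20223 and 7 without K459; it was 20 at a range of 0.58 (32.7% of all genes) and 3 at a range of 2 (5.52%). The number above background in every line was 27 to 32, and the median difference -0.04 to 0.04. For 16 genes (the 11 with a range of 1 or more, Mdm2, Cdkn2a and Cdkn2b, and Gadd45b and Phlda3, added after the data were seen), 7 of 160 differences under the alternatives turned in sign, all with 1 line left out. Over the lines left out, the difference ran from -0.88 to 0.13 for Trp53inp1 (0.13 without K459), from -0.14 to 1.14 for Perp and from -0.03 to 1.30 for Btg2 (both lowest without TPC20223), from -1.97 to 0.66 for Fas (0.24 without TPC18645, 0.66 without K459) and from -0.59 to 1.20 for Ephx1 (-0.59 without TPC20223, -0.11 without TCPA18654). With 1 line left out, the spread of its group comes from the other group alone, and 1 array per line limits every value. No paired analysis was possible because the lines carry no numbers that the groups share.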
